A study of Arabidopsis thaliana with 12 samples.

Results

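SECE1, AT3G13120 and AT4G01310 are nuclear genes for plastid proteins, and their transcripts were followed in Arabidopsis thaliana roots of the wild type (WT) and of the kn09 mutant. AT3G13120 encodes a protein of the small subunit of the plastid ribosome, AT4G01310 encodes a protein of its large subunit, and SECE1 encodes a subunit of the Sec translocase in the thylakoid membrane. The members were the array features that the platform annotation assigns to each of these genes alone. There was 1 feature per gene, so 3 of 3439 features were followed, and 692 of the 3439 carry the name of 1 gene. No probe sequence was at hand to test these names, so each result holds for the feature and for the gene only as far as the annotation does.

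Total RNA was measured in 6 WT and 6 kn09 samples, all in the Wassilevskija background, with roots of both genotypes kept for 48 h on MS medium that held 100 mM glucose. By its labels kn09 is proline-hypersensitive and cannot break down proline in mitochondria. They name no mutated gene, so no targeted transcript could be checked. They number the samples 1 to 6 within each genotype without saying which came from separate cultures, so the p-values measure a spread between samples that may be technical. The mean correlation across features was 0.910 between consecutive samples (1 and 2, 3 and 4, 5 and 6) and 0.845 between other samples in WT, and 0.844 and 0.818 in kn09. In kn09 samples 1 and 2 it was 0.817, no higher than between other kn09 samples on average. In such whole roots, fewer cells of a type and less RNA per cell cannot be told apart.

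Plastids keep a ribosome of bacterial type that translates the genes of the plastid genome, and most proteins of this ribosome are encoded in the nucleus, made in the cytosol and imported. Inside the organelle the Sec translocase, built from the motor SECA1, the channel SCY1 and the small partner SECE1, moves proteins into or across the thylakoid membrane. Both systems are best known from leaves, but root plastids, which are mostly not green, also hold ribosomes and import proteins.

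The highest intensity of every sample was exactly 100, shared by 1 to 4 features, and whether this is a scaling to the brightest feature or an upper limit is not known. The samples of the genotypes differed as a whole. The median intensity of a sample was 0.139 to 0.227 in WT and 0.102 to 0.121 in kn09, and 153 to 235 features per WT sample were listed at exactly 0, against 398 to 522 per kn09 sample. For the members, the deposited intensity is therefore given below with its percentile rank among all features of the same sample and with a value from quantile-normalized data. For other genes not all of these are given, and a deposited intensity alone carries the difference between the genotypes as a whole. A rank orders the brightness of features and not the abundance of transcripts. None of 16 root markers lay on a feature with 1 gene, and of 24 green tissue markers only LHB1B2, a light-harvesting protein, did, so the root label could not be tested against root markers. LHB1B2, which has close relatives that its feature may not tell apart, was at 34.8 ± 5.44 in WT (SD, n = 6) and at 33.1 ± 6.78 in kn09 (SD, n = 6), with percentile ranks of 99.4 to 99.8 in the 12 samples.

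SECE1 was the member that differed most between the genotypes. Its intensity in WT samples 1 to 6 was 0.258, 0.239, 0.394, 0.410, 0.195 and 0.207. In kn09 samples 1 to 6 it was 0.0976, 0.0602, 0, 0, 0.146 and 0.109. The highest kn09 sample lay below the lowest WT sample, so the genotypes did not overlap. All kn09 samples lay below all WT samples in 15.4% of all features.

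**Figure D1:**
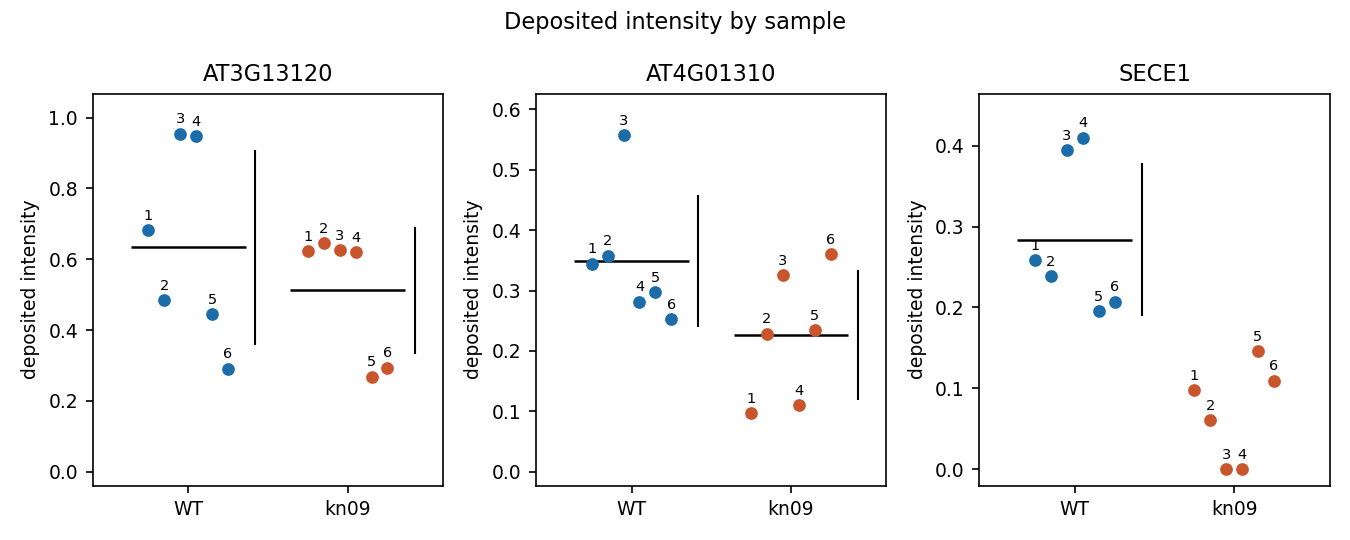
Deposited intensity (linear scale) of AT3G13120, AT4G01310 and SECE1 in each of 6 WT and 6 kn09 samples, with the sample number above each point. Horizontal lines are genotype means and vertical lines 1 SD, left out for a group with a value of 0. The 6 kn09 samples of SECE1 lie below its 6 WT samples, while the genotypes overlap for the ribosomal protein genes.

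The WT mean of SECE1 was 0.284 ± 0.0943 (SD, n = 6), and the difference in mean intensity, kn09 minus WT, was -0.215. An exact 2-sided permutation test over the 12 samples gave p = 0.00216, the smallest that 6 against 6 samples allow, and 0.0129 after Benjamini-Hochberg adjustment over all features. By this test 32.7% of all features were lower in kn09 and 2.82% higher, so a call in this direction was common on the deposited scale. Divided by the median of the features above 0 in its sample, SECE1 was 1.33 ± 0.287 in WT (SD, n = 6) and lower in kn09. The sample medians given above include the zeros and were not the divisor. After this division the exact adjusted p was 0.0317, where 8.93% of features were called lower and 8.78% higher. That division was chosen after seeing the data. Without kn09 samples 3 and 4, which were at 0, the difference in deposited intensity was -0.181 with an exact adjusted p of 0.0537. With means of consecutively numbered samples as 3 values a genotype the exact p for deposited intensity was 0.1, the smallest that 3 against 3 allow.

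The rank of SECE1 does not depend on the scale of a sample. Its percentile rank was 57.6, 52.1, 67.0, 69.1, 59.0 and 59.8 in WT samples 1 to 6. In kn09 samples 1 to 6 it was 48.1, 37.2, 5.80, 6.37, 58.3 and 51.2. In kn09 samples 3 and 4 the rank is that of the zeros, and in kn09 sample 5 it was above WT samples 1 and 2. In 5 of 6 kn09 samples SECE1 ranked below every WT sample. The mean rank was 60.8 ± 6.28 in WT (SD, n = 6), and the kn09 minus WT difference was -26.3 percentile points. The exact permutation p was 0.00649, or 0.0457 adjusted over all features, a test that called 6.02% of features lower and 8.20% higher in kn09. This call was lost without any 1 of 11 of the 12 samples, with exact adjusted p from 0.0560 to 0.157, kn09 sample 5 being the exception. Without kn09 samples 3 and 4 the mean difference in rank was -12.1, with an exact adjusted p of 0.142.

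**Figure D2:**
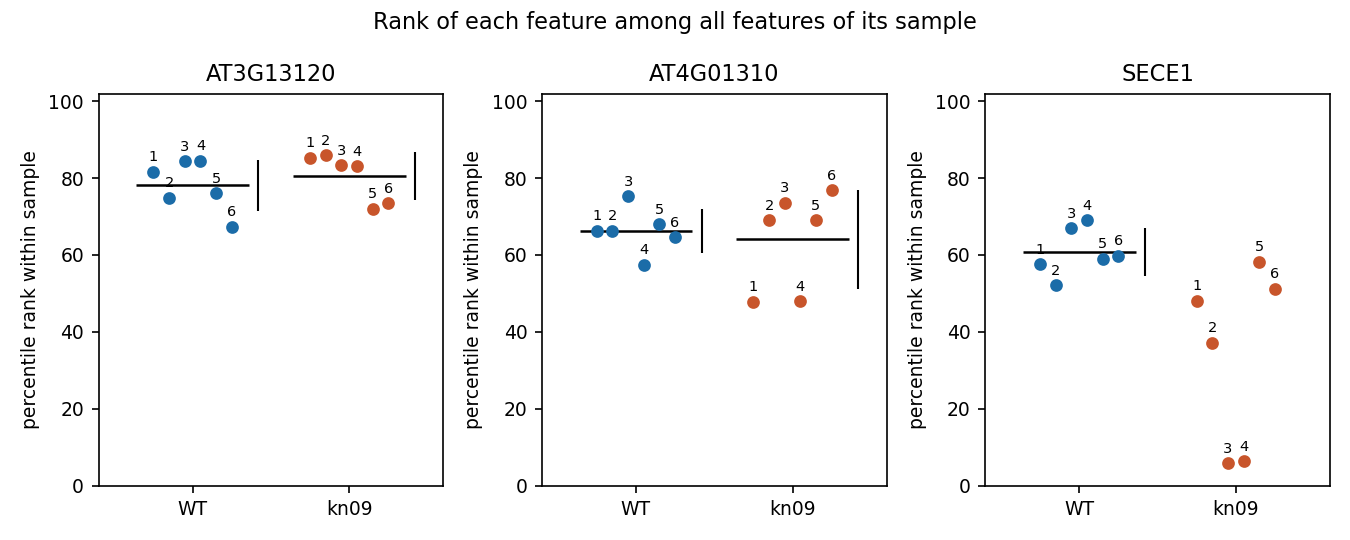
Percentile rank of each feature among all 3439 features of its sample (100 is the brightest), for the 6 WT and 6 kn09 samples, with sample numbers above the points. Horizontal lines are genotype means and vertical lines 1 SD, left out for a group with a feature at 0. SECE1 drops to ranks near 6 in kn09 samples 3 and 4 and reaches 58.3 in kn09 sample 5, inside the WT range.

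On the quantile-normalized log2 scale, where zeros were set to a floor of -7.33, SECE1 had values of -2.62 to -1.70 in WT. The 4 kn09 samples above 0 had -3.36 to -2.30, and kn09 samples 3 and 4 stood at the floor. The log2 difference, kn09 minus WT, was -2.14 ± 0.91 (SE), with a 95% interval of -4.12 to -0.16. In limma the p was 0.0367 and the adjusted p 0.141, so SECE1 was not called, while 12.8% of all features were called, 6.31% lower and 6.48% higher in kn09. With consecutive samples as a random block the adjusted p in limma was 0.221, and 2.38% of features were called. The size of the difference rests on the zeros. With zeros as missing, or without kn09 samples 3 and 4, the log2 difference was -0.62, with limma adjusted p of 0.143 and 0.165. On the intensities as deposited it was -3.04 with a limma adjusted p of 0.0298, where 36.6% of all features were called, 33.7% lower and 2.88% higher, and the median difference of all features was -0.85.

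The zeros of SECE1 fell in kn09 samples 3 and 4, although WT samples 3 and 4 were its highest. Of all features, 24, or 0.698%, shared the pattern of values above 0 in every WT sample and zeros in exactly these kn09 samples. Values above 0 in every WT sample with a zero in at least 1 kn09 sample occurred in 21.2% of features. AT3G13120 stood at 0.625 and 0.620 and AT4G01310 at 0.326 and 0.110 in the same kn09 samples.

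AT3G13120, of the S10 family of the small subunit, showed no call in either direction. Its intensity in WT samples 1 to 6 was 0.682, 0.484, 0.955, 0.947, 0.444 and 0.290. In kn09 samples 1 to 6 it was 0.623, 0.645, 0.625, 0.620, 0.268 and 0.294. The genotypes overlapped. In both genotypes samples 5 and 6 were the lowest, and WT samples 3 and 4 were the highest of all 12, while kn09 samples 1 to 4 lay within 0.620 to 0.645.

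The mean of AT3G13120 was 0.633 ± 0.276 in WT and 0.512 ± 0.180 in kn09 (n = 6 each, SD), with an exact permutation p of 0.372 and 0.487 adjusted over all features. Its mean rank was 78.1 ± 6.66 in WT and 80.5 ± 6.16 in kn09 (n = 6 each, SD), with an exact adjusted p of 0.713. The limma log2 difference was 0.21 ± 0.32 (SE) with an adjusted p of 0.676 and a 95% interval of -0.49 to 0.91. On the intensities as deposited the log2 difference was -0.28, so even its sign depended on the scaling.

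AT4G01310, of the L5 family of the large subunit, also showed no call. In WT samples 1 to 6 it had 0.344, 0.358, 0.557, 0.282, 0.297 and 0.253. In kn09 samples 1 to 6 it had 0.0968, 0.229, 0.326, 0.110, 0.235 and 0.360. In 4 of 6 kn09 samples the intensity lay below every WT sample, whereas kn09 samples 3 and 6 stood inside the WT range. The lowest intensities were those of kn09 samples 1 and 4.

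The mean of AT4G01310 was 0.348 ± 0.109 in WT and 0.226 ± 0.108 in kn09 (n = 6 each, SD), with an exact permutation p of 0.0823 and 0.151 adjusted over all features. Its rank moved from 66.3 ± 5.73 to 64.1 ± 12.8 (SD, n = 6 each), with an exact adjusted p of 0.829. The limma log2 difference was -0.09 ± 0.32 (SE), the adjusted p 0.875 and the 95% interval -0.79 to 0.62. Without WT sample 3, kn09 sample 1 or kn09 sample 4 the sign turned, with log2 differences of 0.025, 0.09 and 0.09.

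**Figure D3:**
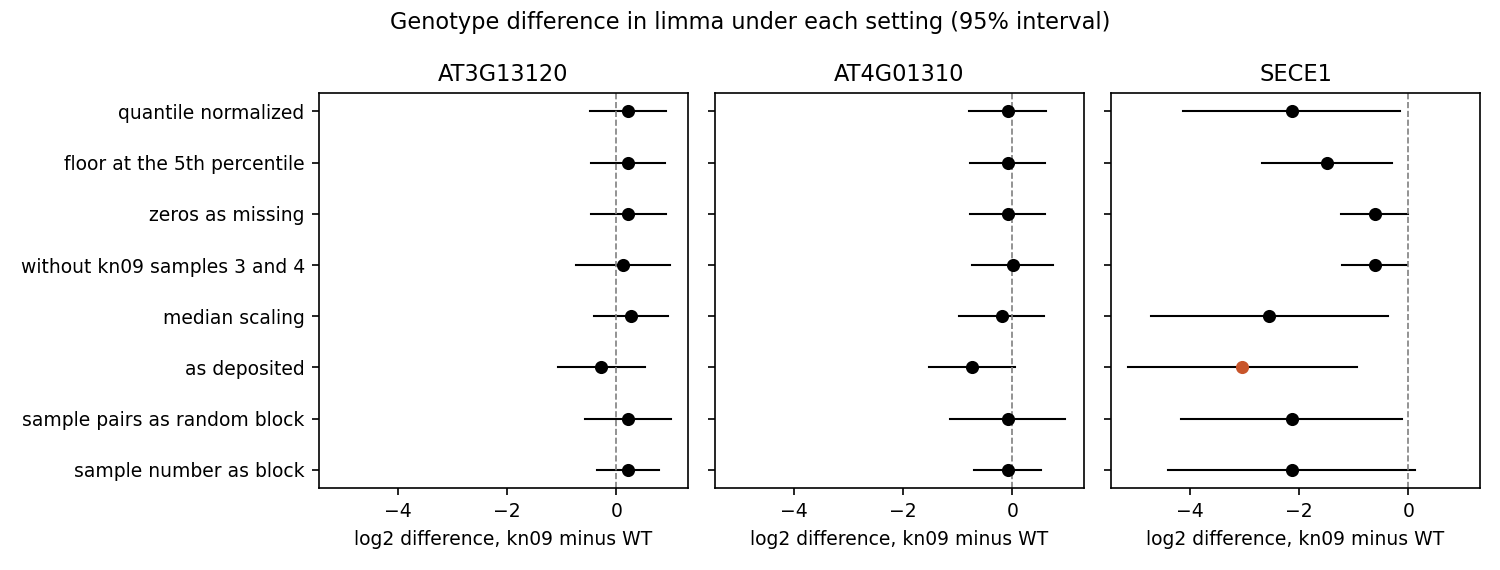
Log2 difference (kn09 minus WT) of each gene in limma with its 95% interval, under 8 settings. A point in colour passed an adjusted p of 0.05 and a black point did not. The SECE1 points lie below 0 throughout, with an interval that reaches 0 when the sample number is a block, from -3.04 as deposited to -0.62 with zeros as missing, and the intervals of both ribosomal protein genes include 0.

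The ratio of a pair of genes measured above 0 does not depend on the scale of their sample, and shows unequal change without saying which gene changed. Where SECE1 was at 0 it stands at a fixed floor, so those ratios move with the scale of the sample and with the floor. The log2 ratio of SECE1 to AT3G13120 lay between -1.40 and -0.49 in WT. In kn09 samples 1, 2, 5 and 6 it was -2.67, -3.42, -0.87 and -1.42, and with the zeros set to a floor it was -7.39 and -7.38 in samples 3 and 4. The difference of the means, kn09 minus WT, was -2.77 on the log2 scale, with an exact 2-sided permutation p of 0.0281, and 5 of 6 kn09 samples lay below every WT sample. For SECE1 over AT4G01310 the difference was -2.30 with an exact permutation p of 0.0346, and again 5 of 6 kn09 samples lay below every WT sample. The third ratio, AT3G13120 over AT4G01310, was 0.79 ± 0.54 in WT and 1.25 ± 1.21 in kn09 (n = 6 each, SD), with an exact permutation p of 0.407. After Benjamini-Hochberg adjustment over the 3 ratios the exact p of both SECE1 ratios was 0.0519, so neither passed 0.05. Without kn09 samples 3 and 4 the SECE1 ratios differed by -1.0 and -0.77, with unadjusted exact p of 0.0667 and 0.129.

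**Figure D4:**
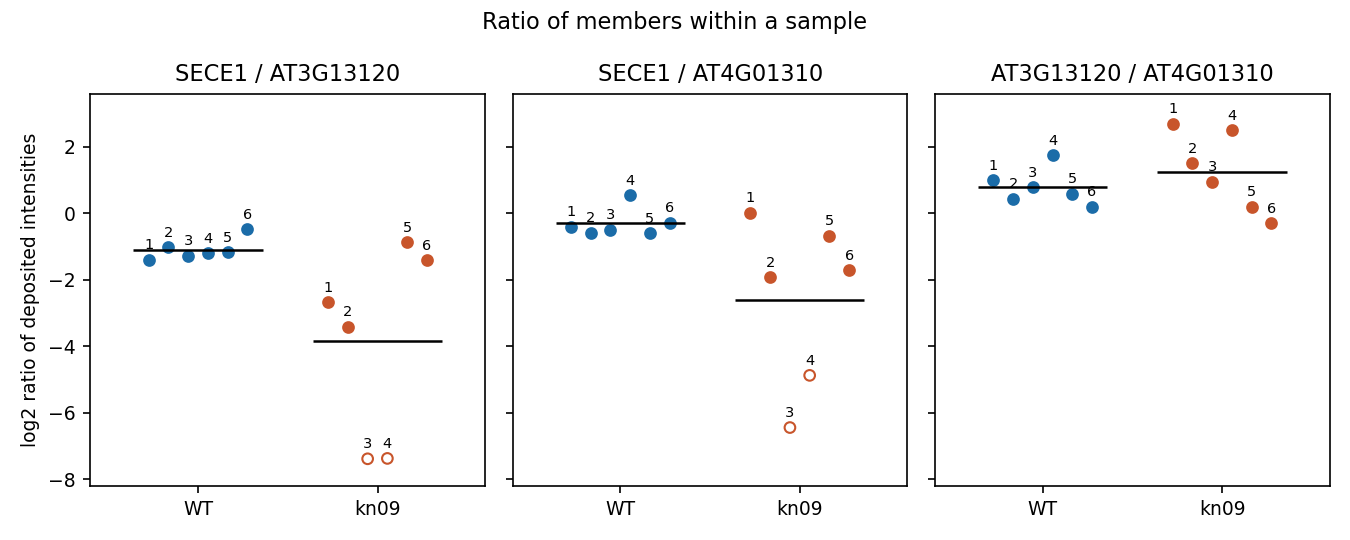
Log2 ratio of the deposited intensities of 2 genes within each sample, for 6 WT and 6 kn09 samples, with sample numbers above the points and lines at the genotype means. Open circles are samples in which SECE1 was listed at 0 and stands at the floor. SECE1 over AT3G13120 in kn09 sample 5 (-0.87) and SECE1 over AT4G01310 in kn09 sample 1 (0.012) lie inside the WT range.

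Further genes of the plastid ribosome were few on the array. Of a list of 41 nuclear genes for its proteins, 6 lay on features with 1 gene, the other four being AT1G64510, AT3G54210, AT1G29070 and AT5G65220. In limma 0 of the 6 were called, 0 had an unadjusted p under 0.05, and the smallest adjusted p was 0.676. Of all 3439 features 12.8% were called in that fit, and 1040 had an unadjusted p under 0.05. The median log2 difference of the 6 was -0.08, against -0.06 over all features, with 1 positive and 5 negative. On the intensities as deposited 2 of the 6 were called lower in limma, beside 33.7% of all features, and their median of -0.75 compared with -0.85 over all features.

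AT1G64510, of the S6 family of the small subunit, had 0.168, 0.139, 0.311, 0.250, 0.305 and 0.254 in WT samples 1 to 6. It had 0.0714, 0.0849, 0.186, 0.152, 0.130 and 0.135 in kn09. All 6 kn09 samples lay below the WT median, and in both genotypes samples 1 and 2 were the lowest. Its mean went from 0.238 ± 0.0706 to 0.127 ± 0.0426 (SD, n = 6 each), with an exact adjusted p of 0.0445. Its rank was 53.9 ± 13.5 in WT and 52.5 ± 8.01 in kn09 (n = 6 each, SD), with an exact adjusted p of 0.895.

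AT3G54210, of the L17 family of the large subunit, had 0.543 to 0.819 in WT and 0.360 to 0.591 in kn09, and 5 of 6 kn09 samples lay below every WT sample. Its mean intensity was 0.655 ± 0.120 in WT and 0.463 ± 0.0888 in kn09 (n = 6 each, SD), with an exact adjusted p of 0.0308. Its rank was 80.3 ± 2.18 in WT and 80.0 ± 3.66 in kn09 (n = 6 each, SD), with an exact adjusted p of 0.902. WT samples 3 and 4 were its highest and kn09 samples 3 and 4 its lowest, at 0.360 and 0.363.

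AT1G29070, of the L34 family, had a WT mean of 0.0975 ± 0.0388 and a kn09 mean of 0.0347 ± 0.0280 (SD, n = 6 each), with an exact adjusted p of 0.0360. Its rank of 29.4 ± 12.3 in WT and 26.3 ± 11.1 in kn09 gave an exact adjusted p of 0.777 (SD, n = 6 each). AT5G65220, of the L29 family, was listed at 0 in 4 WT and 4 kn09 samples. Its other values were 0.166 and 0.0200 in WT and 0.0144 and 0.00958 in kn09. Thus 3 of these 4 features were lower in kn09 as deposited, a call that 32.7% of all features shared. In the exact test of rank 0 of the 4 passed, with a smallest unadjusted p of 0.639. That test called 6.02% of all features lower and 8.20% higher in kn09. Whether the deposited calls of these features hold without single samples was not tested.

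**Figure D5:**
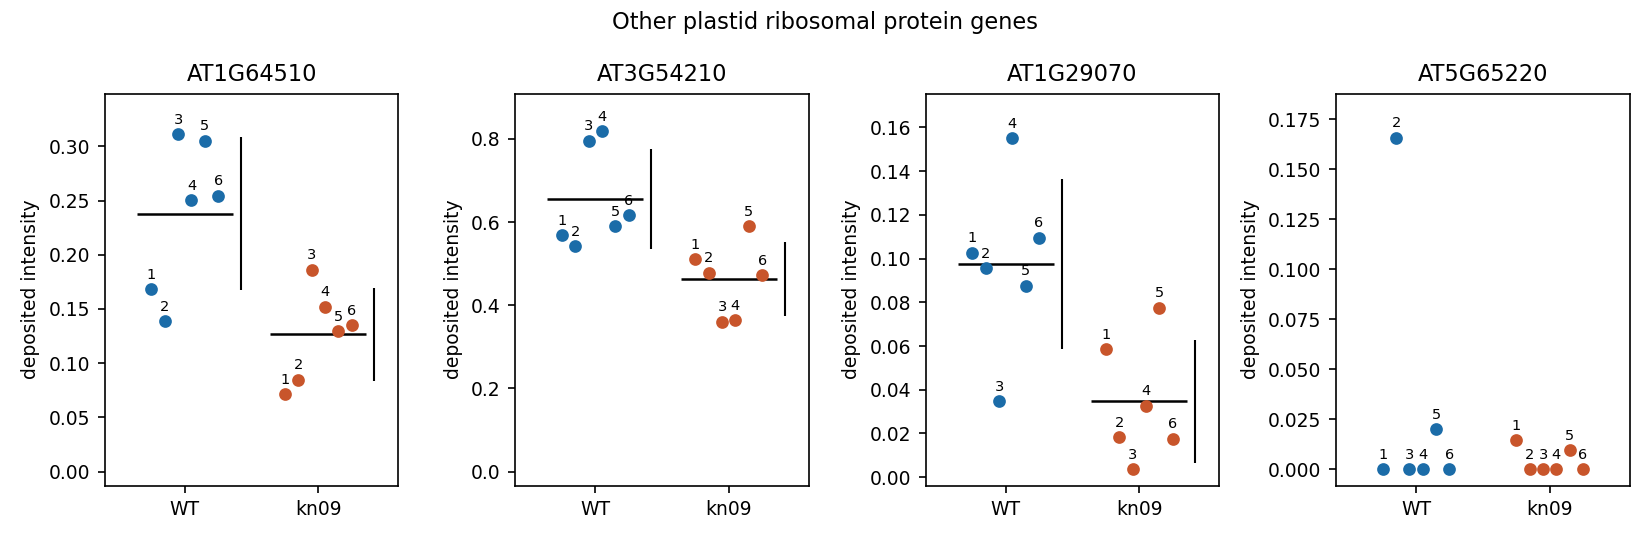
Deposited intensity of 4 more plastid ribosomal protein genes in 6 WT and 6 kn09 samples, with sample numbers above the points. Horizontal lines are genotype means and vertical lines 1 SD, left out for a group with a value of 0. AT1G64510, AT3G54210 and AT1G29070 are lower on average in kn09 with overlap between genotypes, and AT5G65220 is at 0 in 8 of 12 samples.

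Of 13 genes for thylakoid translocation SECE1 was the only one on a feature with 1 gene. Of 12 genes for protein passage through the plastid envelope, AT4G38490, which encodes a second SecE-type protein, was the only one. It was listed at 0 in 3 WT and 2 kn09 samples, and its highest values were 0.115 in WT sample 4 and 0.103 in kn09 sample 4. Its limma log2 difference was 1.21 ± 0.99 (SE) with an adjusted p of 0.429. Of 9 plastid translation factors, 0 lay on a feature with 1 gene and 3 on features with several, which are not named here.

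Among the other features with 1 gene, those most like each member were taken by Pearson correlation of normalized log2 values over the 12 samples, which share genotype, zeros and neighbouring sample numbers. For SECE1 they were AT2G32040, a plastid folate transporter (r = 0.99), AT3G28460 (r = 0.96) and AT3G50180 (r = 0.89). AT2G32040 and AT3G28460 were also at 0 in kn09 samples 3 and 4 and above 0 elsewhere. Within the 6 WT samples, which hold no zeros, r with SECE1 was 0.90 for AT2G32040, -0.97 for AT3G28460 and 0.34 for AT3G50180. AT2G32040 had 0.731 and 0.760 in WT samples 3 and 4, its highest values, as SECE1 did.

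AT3G50180 was above 0 in all samples, with 1.01 ± 0.338 in WT (SD, n = 6) and 0.241 ± 0.121 in kn09 (SD, n = 6). Its lowest values, 0.0625 and 0.116, were those of kn09 samples 3 and 4. It was called lower in limma, with a log2 difference of -1.72 ± 0.43 (SE) and an adjusted p of 0.0294, a call that ended in 6 of 21 alternatives. Without WT sample 3, WT sample 4 or kn09 sample 4 the limma adjusted p of AT3G50180 was 0.0637, 0.0575 and 0.0554, and with the blocks or means of samples it was 0.0762 to 0.268. For AT2G32040 the limma log2 difference was -2.60 with an adjusted p of 0.112, and for AT3G28460 it was -1.47 with an adjusted p of 0.234. As deposited, where limma called 33.7% of all features lower, both were called lower, with limma adjusted p of 0.0281 and 0.0301. With zeros as missing their limma log2 differences were -0.92 and -0.16, with adjusted p of 0.0910 and 0.728.

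The features most like AT3G13120 were AT1G24310 (r = 0.75), AT2G32640 (r = 0.75) and AT1G80450 (r = 0.70). Those most like AT4G01310 were AT4G22370 (r = 0.75), AT1G02260 (r = 0.73) and AT4G09970 (r = 0.71). None of these 6 was called in limma on quantile-normalized values, with adjusted p from 0.190 to 0.891, while 12.8% of all features were. As deposited AT1G02260 was called lower, with a log2 difference of -0.87 and a limma adjusted p of 0.0162, and the others were not. On that scale limma called 33.7% of all features lower. None of the 4 other plastid ribosomal protein genes was among these 6 features.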

How the data were processed

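The values used are the deposited intensities, linear and 1 for each feature of a sample. How the authors scanned, corrected and scaled them is not given in the sources consulted. In every sample the highest value is 100 and many are exactly 0. No per-sample column was left aside, and 0 pairs of samples held identical values. Intensities were quantile normalized and put on the log2 scale, with zeros and values under the 1st percentile of the positive values (0.00620) set to that floor. Each of 3439 features was tested in limma 3.58.1 (R 4.3.3; lmFit and eBayes, genotype as the only term, 2-sided), with p-values adjusted by Benjamini and Hochberg over the 3439 and a call at an adjusted p under 0.05. Exact permutation tests over all 924 labelings compared mean deposited intensity and mean percentile rank, adjusted over all features. Ratios used a floor at the 1st percentile of the deposited values (0.00372). The code was tested on simulated data. Names came from the platform annotation, updated by Entrez identifier to TAIR10.1 (690 of 692 matched). No genome build for the array was stated, and coordinates are therefore left out. Named genes were the members, list genes on features with 1 gene, and the 3 features most like each member. Members and lists were chosen with earlier results of these data known. Alternatives changed the scaling, floor, zeros, filter, blocks and samples, and the number of arrays limits precision.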

Additional observations from a re-analysis of the deposited data

Results flagged for a closer look

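Of 72 sets of 6 values checked for the 18 named genes, 7 held a sample far from the others of its genotype. Chance flags about 1 in 20 of independent sets of normally distributed values. That rate does not hold here, because the same samples were checked on the deposited and the normalized scale. Some sets also hold several zeros. AT4G01310 in WT sample 3 stood at a deposited 0.557, with the next WT sample at 0.358. AT1G29070 in the same sample had a normalized log2 intensity of -6.45, the lowest of WT, with the next at -4.24. AT5G65220 in WT sample 2 had a deposited 0.166 against 0.0200 in the next, and a normalized log2 intensity of -3.20 against -5.83. AT1G80450 in WT sample 2 had a deposited 0.354 against 0.131. AT4G09970 in WT sample 3 had a deposited 0.231 against 0.0410, and a normalized log2 intensity of -2.69 against -6.04. SECE1 and AT3G13120 held no such sample.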

How the results depend on the processing

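The count of 440 called features (223 higher, 217 lower) became 1257 as deposited (99 higher, 1158 lower), 211 with the replicate block, 82 with consecutive samples as a random block, 16 with their means, 202 without kn09 samples 3 and 4 (chosen after seeing the data) and 183 to 506 without a single sample. The replicate block changed no member's limma call, SECE1 keeping -2.14 with a limma adjusted p of 0.182. Same-numbered samples of the genotypes deviated together only weakly (r from 0.0683 to 0.0995), each correlating best with its own number, which the labels do not explain. The limma difference of SECE1 passed only as deposited (-3.04), and its adjusted p ranged from 0.0298 to 0.410. That of AT3G13120 turned as deposited (-0.28). That of AT4G01310 ranged from -0.24 to 0.0898 without a single sample and was 0.0015 without kn09 samples 3 and 4. The deposited difference of AT3G13120 turned with medians (0.0384) and over the sample's median of features above 0 (0.646, chosen after seeing the data). That of SECE1 lost its call without kn09 samples 3 and 4 (-0.181), and kept it without any single sample, from -0.233 to -0.190. The rank difference of SECE1 lost it without kn09 samples 3 and 4 (-12.1), and was -31.0 to -20.5 without a single sample. For AT4G01310 that range was -4.82 to 0.970. The SECE1 ratios, whose p passed 0.05 only before adjustment, no longer did so without kn09 samples 3 and 4 (-1.0 and -0.77), nor without any of WT samples 2 to 6 for the first (exact p from 0.0519 to 0.0693) or any WT sample for the second (exact p from 0.0649 to 0.102). Without a single sample they were -3.36 to -2.06 over AT3G13120 and -2.82 to -1.53 over AT4G01310. Means of consecutive samples leave 3 values against 3, where no exact p can be under 0.1, so they test none of these calls. With pairs of equal size the differences must stay as they were, at an intensity of -0.215, a rank of -26.3 and ratios of -2.77 and -2.30. The pair means of SECE1 do not overlap in intensity or rank. In rank they nearly meet, at 54.75 for kn09 samples 5 and 6 and 54.84 for WT samples 1 and 2. The pair means of the log2 ratio of SECE1 to AT3G13120 do overlap between the genotypes, with an exact permutation p of 0.3. The cause of the other changes was not tested.

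Signs also turned for uncalled genes. As deposited the log2 difference was -0.13 for AT1G24310, -0.55 for AT2G32640, -0.52 for AT4G22370 and -0.60 for AT4G09970. With median scaling, which moves the median of all features to -0.34, it was 0.038 for AT3G54210, 0.46 for LHB1B2, -0.044 for AT2G32640 and -0.31 for AT4G09970. It was 0.998 for AT1G80450 with zeros as missing and -0.077 for AT4G09970 with the higher floor. Without kn09 samples 3 and 4 it was 0.23 for AT1G29070, 0.35 for AT5G65220 and 0.18 for AT3G54210. Without a single sample it ranged from -0.28 to 0.076 for AT1G64510, -0.60 to 0.17 for AT1G29070, -0.46 to 0.56 for AT5G65220, -0.082 to 0.063 for AT3G54210 and -0.80 to 0.29 for AT1G80450. AT5G65220 has no value under the filter on dim features. Dim features near the floor carry the least information.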
